A study of Mus musculus with 3 samples.

Results

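The defensin genes (Defa and Defb followed by a number) and the hair keratin-associated protein genes (Krtap followed by a number) were taken from the gene names printed in the scanner files. The rule found 105 gene names, measured by 129 probes in 138 spots, out of 35527 gene names and 55681 gene probes on the array. Defa gave 8 genes with 12 probes, Defb gave 44 genes with 51 probes, and Krtap gave 53 genes with 66 probes. The samples were primary mouse embryonic fibroblasts (MEF) of the C57BL/6 strain, whose total RNA was labelled with Cy3 and hybridized to Agilent whole genome arrays of 60-base probes. The control sample had no BP (the labels record no treatment, and the study's text describes DMSO, the solvent of BP). The BP10 and BP40 samples were MEF cultured with 10 and 40 µg/ml of n-butylidenephthalide, a compound of the herb Angelica sinensis. Each condition was 1 array, so there was no spread between cultures, no test and no p-value. The treatment time was not given in the sources used here. MEF are a mixed primary culture from a minced embryo, and in bulk RNA fewer cells of a type and less RNA per cell cannot be told apart.

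Defensins are small cationic peptides, folded by disulfide bonds between cysteines, that damage microbial membranes. In the mouse the alpha-defensins (Defa, also called cryptdins) are products of the Paneth cells of the small intestine, and the beta-defensins (Defb) of covering epithelia and, for many members, of the epididymis and testis. Keratin-associated proteins form the matrix that cross-links keratin filaments in the hair shaft, some being very rich in cysteine and others in glycine and tyrosine. Neither group is a known product of fibroblasts, and their probes show how an array reads genes that were thought to be silent.

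The labels name the cells as fibroblasts, and all 12 fibroblast markers, Col1a1, Vim and Thy1 among them, were well above background on each of the 3 arrays. Each marker gene was read by 1 probe, the one above background on the most arrays and then the brightest, which can raise these counts. The hair shaft markers were well above background in 8, 5 and 6 of 8 on the control, BP10 and BP40 arrays, and their probes summed to 24738, 26274 and 17251 signal units before scaling. The hair keratin Krt85 read 21462, 24550 and 15401 of these units, which after scaling were log2 ratios against control of 0.51 on BP10 and 0.04 on BP40. Of 12 keratinocyte markers, 10, 8 and 7 were above, while the epithelial adhesion genes Cdh1 and Epcam were not well above background on any array, and the list summed to 10929, 11317 and 7052 units. Paneth cell markers were above in 5, 5 and 3 of 7, neutrophil markers in 5, 4 and 5 of 8, and epididymis markers in 4, 2 and 4 of 8. The part of such cells in the signals below was not tested.

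The probes are printed here because a signal on a short DNA sequence is all that was measured, and several of these genes are close copies of each other. Of 129 member probes, 21 shared a run of 20 bases with a probe of a differently named gene: 8 of 12 for Defa, 0 of 51 for Defb and 13 of 66 for Krtap. The values of such genes are uncertain, since RNA of a near-identical copy can bind the same probe. The positions are those of the array's mm9 annotation, and whether a probe lies in a coding exon or a UTR was not determined here. In 3 pairs, probes of differently named genes differed at 10 or fewer of their 60 positions, and capitals mark the bases that differ within each pair. Defb15 lies at chr8:23040417-23040476 (minus strand) and Defb34 at chr8:19126406-19126465 (plus strand), with 6 differences. Krtap8-2 lies at chr16:88896479-88896538 and Krtap16-4 at chr16:88885057-88885116 (both minus), with 8 differences. Krtap16-8 lies at chr16:89047852-89047911 (minus) and Krtap6-1 at chr16:89032140-89032199 (plus), with 3 differences.
Defb15: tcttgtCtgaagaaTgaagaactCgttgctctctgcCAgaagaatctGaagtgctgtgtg
Defb34: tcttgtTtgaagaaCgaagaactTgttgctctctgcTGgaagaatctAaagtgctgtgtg
Krtap8-2: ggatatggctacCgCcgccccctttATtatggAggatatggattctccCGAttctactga
Krtap16-4: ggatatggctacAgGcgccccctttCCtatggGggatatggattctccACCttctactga
Krtap16-8: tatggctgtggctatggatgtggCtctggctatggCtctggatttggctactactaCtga
Krtap6-1: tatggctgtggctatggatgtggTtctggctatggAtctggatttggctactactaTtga

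Other member probes show the make-up of the families, and capitals in these mark cysteine codons (TGT or TGC) in a reading frame without a stop. By this count the Krtap5 probes, from a cluster on chromosome 7, ranged from 0 to 9 cysteine codons. Of the 4 Krtap5-5 probes 3 held 9, the most of any member, both Krtap5-1 probes 8 and that of Krtap5-3 7. The other 4 were counted at 2 or fewer. The count of 0 is of a Krtap5-2 probe whose sequence ends in the stop codon TGA. A frame that ends in a stop was left out, so this 0 does not show a lack of cysteine codons. Krtap4-8, at chr11:99641467-99641526, had 7. Krtap20-2, of the glycine-tyrosine type, had 4 probes on chromosome 16, of which the pair below shared 20 bases of the genome. The Defb28 probe at chr2:152345796-152345855 held 4 cysteine codons in such a frame.
Krtap5-1, probe 1: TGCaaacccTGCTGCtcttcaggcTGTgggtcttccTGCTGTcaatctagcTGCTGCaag
Krtap5-1, probe 2: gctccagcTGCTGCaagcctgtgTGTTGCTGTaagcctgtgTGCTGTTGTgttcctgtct
Krtap5-3: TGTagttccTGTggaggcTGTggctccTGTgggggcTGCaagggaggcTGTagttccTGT
Krtap4-8: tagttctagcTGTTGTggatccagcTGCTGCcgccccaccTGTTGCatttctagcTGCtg
Krtap20-2, at chr16:89206222-89206281: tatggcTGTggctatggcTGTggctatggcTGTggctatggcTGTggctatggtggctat
Krtap20-2, at chr16:89206262-89206321: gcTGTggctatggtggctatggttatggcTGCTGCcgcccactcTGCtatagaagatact
Defb28: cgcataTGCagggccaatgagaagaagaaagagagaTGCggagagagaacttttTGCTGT

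Signals are the scanner software's background-subtracted processed signal in its own linear units. A probe counted as well above background where the software's flag was set on over 50% of its spots not flagged as outliers. Levels are log2 of that signal minus the array's 75th percentile over gene spots, which was 1744, 1401 and 1214 signal units on the control, BP10 and BP40 arrays. A probe's signal depends on its sequence, so levels of different probes are not set against each other as amounts of RNA.

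Many of these probes gave a signal above background. On the control array 83 of 129 (64.3%, 95% exact binomial interval 55.4% to 72.6%) were well above background, on the BP10 array 57 of 127 (44.9%, 36.1% to 54.0%) and on the BP40 array 68 of 129 (52.7%, 43.7% to 61.6%). The intervals cover the count of probes only. Over all gene probes the shares were 81.2%, 67.4% and 68.3%, so the control array had the highest share in the members and in the whole array alike. Olfactory receptors (Olfr), which serve smell in the nose, gave 54.0%, 32.3% and 34.5%, and the vomeronasal receptors 53.8%, 33.9% and 35.5%. Among spots that carry a sequence with no target in the genome, the negative controls, 8, 9 and 4 of 308 passed the same flag. Outlier spots were kept in this count and left out of the probe counts, so the shares are not measured by the same rule. The label of silent genes was therefore not borne out by the flag for every member, and the genes are called here by their names.

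**Figure D1:**
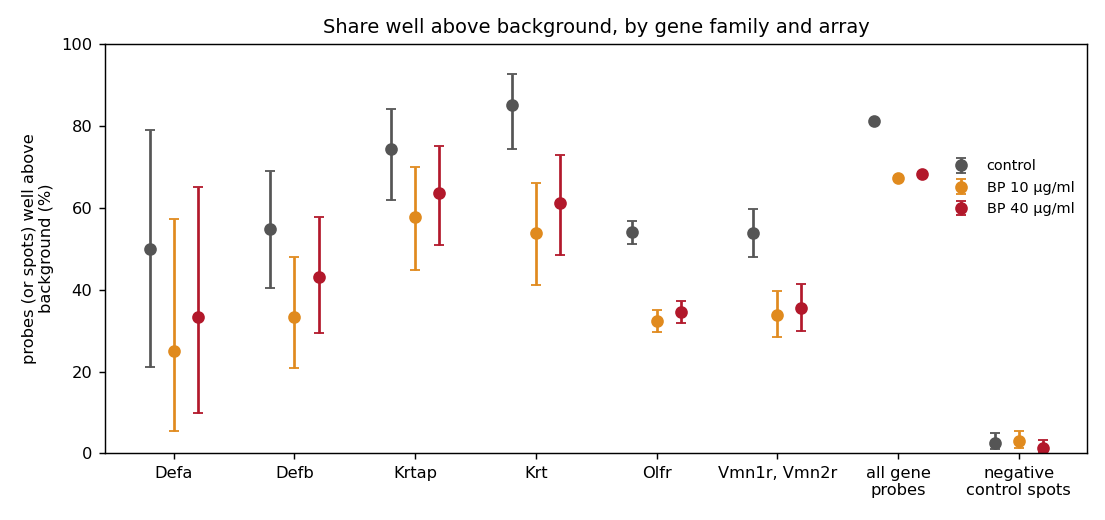
Share of probes (or, for negative controls, spots with outliers kept) well above background on each array, in percent, with 95% exact binomial intervals. The control array lies above both BP arrays in each gene family and over all gene probes (81.2% against 67.4% and 68.3%), and negative control spots lie below 3% on each array.

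The families differed in how many probes passed. The alpha-defensins had 6, 3 and 4 of 12 probes well above background on the control, BP10 and BP40 arrays, the beta-defensins 28, 17 and 22 of 51, and the keratin-associated genes 49, 37 and 42 of 66 (64 with a value on BP10). Median signals were 49.2, 17.3 and 17.5 units for Defa, 58.6, 21.0 and 27.1 for Defb, and 131, 92.0 and 105 for Krtap. These are unscaled units. On the level after scaling the medians were −5.21, −6.36 and −6.13 for Defa, −4.90, −6.06 and −5.48 for Defb, and −3.74, −3.93 and −3.53 for Krtap, so control was highest in both defensin families and BP40 in Krtap. The share above background was highest on control in each family. Of the 127 members with a value on each array, 55 were well above background on all 3 (3 Defa, 15 Defb, 37 Krtap), 42 on none, 18 on the control array alone, 8 on control and BP40, and 4 on 1 or both BP arrays alone. Of the members, 43.3% were thus above on all arrays, 33.1% on none, 14.2% on control alone and 6.30% on control and BP40, beside 63.9%, 17.0%, 11.3% and 3.56% of all gene probes. Counted by gene, 46 of 105 had a probe above background on all arrays and 38 had no such probe on any array.

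By genomic cluster, the 10 Krtap5 probes on chromosome 7 were above background in 10, 9 and 9 of 10, and the 3 probes on chromosome 10 in each case. The 34 defensin probes on chromosome 8 were above in 15, 8 and 10, and the 4 beta-defensin probes on chromosome 1 in 2, 0 and 0. Base composition moved with signal: across the 129 members the GC content of the probe and its control level had Pearson's r of 0.60 (BP10 0.56, BP40 0.60). It was 0.47 over 1193 Olfr probes and 0.12 over all gene probes on the control array. Of 38 member probes with under 40% GC, 17, 7 and 9 were above background on control, BP10 and BP40, while of 33 with 50% or more, 29, 25 (of 31) and 29 were. The points of these correlations share an array and its labelling, and base composition was not tested as a source of the signal.

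**Figure D2:**
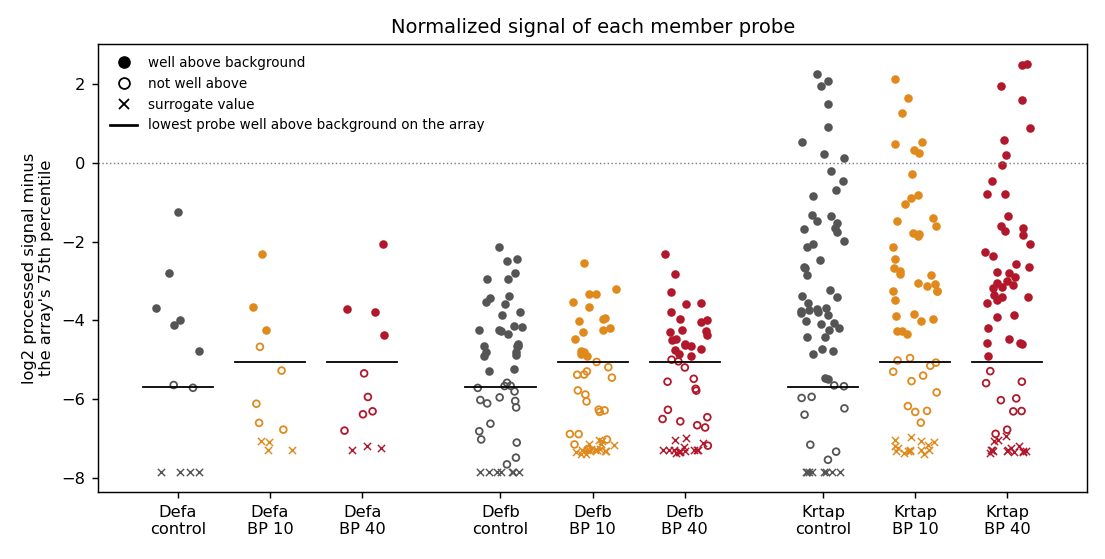
Normalized level of each member probe (log2 processed signal minus the array's 75th percentile) by family and array. Filled points are well above background, open points are not, crosses are surrogate values given by the software, and the bar is the lowest probe well above background on that array, −5.68 on control, −5.07 on BP10 and −5.05 on BP40. The surrogates at the bottom form 1 level on control and a band on each BP array.

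The brightest members were keratin-associated genes. The Krtap10-10 probe read 8364 units without BP, 3350 at 10 µg/ml and 4697 at 40 µg/ml. Krtap16-4 read 7368, 4386 and 6839, and its partner Krtap8-2, whose printed probe differs at 8 bases, read 3298, 2043 and 3664. Both probes of that pair were lowest on the BP10 array, and their log2 ratios against control were −0.43 and −0.38 at 10 µg/ml and 0.41 and 0.67 at 40 µg/ml. The other Krtap8-2 probe read 2526, 1674 and 2259, with log2 ratios against control of −0.28 and 0.36. Krtap4-8, an ultra-high-sulfur member, read 6736, 6159 and 6894, with log2 ratios of 0.19 and 0.56 against control and a scanner error of 0.20. In all, 8 members lay above the array's 75th percentile on the control array.

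Within the defensins the highest signals were lower. Defa1, a Paneth cell cryptdin, gave 737, 283 and 291 units on its brighter probe and 63.5, 12.8 and 15.3 on its other probe, which was above background on the control array alone. Defb11 was the brightest beta-defensin, at 399, 240 and 243 units. The best known epithelial members read near or at the floor: Defb1 gave 15.5, 33.6 and 7.79 units, Defb4 gave 8.63, 9.01 and 13.8, and Defb14 gave 12.7, 9.09 and 15.7, none well above background on any array.

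Of the members not well above background, 46 on control, 70 on BP10 and 61 on BP40, some kept a measured signal, and for the others the software put a surrogate, a small number set by the array's noise, in place of the value. Without BP, surrogates stood for 19 member probes (all at 7.54 units), with BP for 36 at 10 µg/ml (8.34 to 11.2) and 33 at 40 µg/ml (7.32 to 9.83). After scaling, the median surrogate lay at −7.85 on control, −7.28 on BP10 and −7.29 on BP40. In the 17 members at a surrogate on both arrays compared, the ratio of such stand-in values had a median log2 of 0.55 for BP10 against control, 0.56 for BP40 against control and, over 29 members, 0.00 for BP40 against BP10. Negative control spots not flagged as outliers gave medians of 0.55, 0.56 and −0.01 in the same comparisons. Defa4, Defa5, Defb12, Defb43, Krtap3-3 and Krtap4-6 are examples, with log2 ratios against control between 0.46 and 0.75 and no measured level on any array.

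Members were called at a log2 ratio of 1 or more in size (2-fold) where the probe was well above background on 1 or both of the arrays compared. For BP10 against control 5 of 127 members were called higher, beside 2.99% of all gene probes, and 28 were called lower, beside 17%. Against control at 40 µg/ml, 7 of 129 were higher (all gene probes 2.73%) and 23 lower (14.9%). Between the BP arrays, 7 of 127 were higher on BP40 (3.08%) and 3 lower (2.86%). The members' shares called lower were 22.0%, 17.8% and 2.36%. With no filter on dim probes the counts were 9 higher (all gene probes 4.1%) and 38 lower (20.1%) for BP10 against control, 9 higher (4.35%) and 29 lower (17.6%) for BP40 against control, and 10 higher (6.24%) and 8 lower (4.92%) for BP40 against BP10.

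The median log2 ratio of the members was −0.39, −0.31 and 0.06 in these comparisons, beside −0.23, −0.14 and 0.04 over all gene probes. Member probes were dim as a rule, 95 of 127 falling in the dimmer 10 of 20 classes of equal size ranked by mean level. With each member given the median ratio of all gene probes in its brightness class, the median of these over the members was −0.43, −0.41 and 0.04. The shares called in those classes, averaged over the members, were 24.4%, 21.8% and 6.61%, beside 26.0%, 22.8% and 7.87% of the members. After the class median was subtracted, the median ratio of the members was −0.02, 0.01 and 0.04. Class by class they lay on both sides: on BP10 against control the member median was −1.55 in the 6th class (8 members) beside −0.79 for all its probes, −1.07 in the 13th (5 members) beside −0.20, and −0.11 in the 9th (7 members) beside −0.58. Other scalings moved the split of higher against lower calls, and the median of all gene probes with it. With quantile normalization 7 were higher and 20 lower on BP10 against control, and on BP40 10 were higher and 11 lower. With the brightness class median subtracted they were 7 and 18, and 9 and 9. Scaling to the bright spike-in probes gave 2 higher and 52 lower for BP40 against control and 3 higher and 14 lower for BP40 against BP10, and normexp background correction 3 and 3, 4 and 1, and 0 and 1 in the 3 comparisons.

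**Figure D3:**
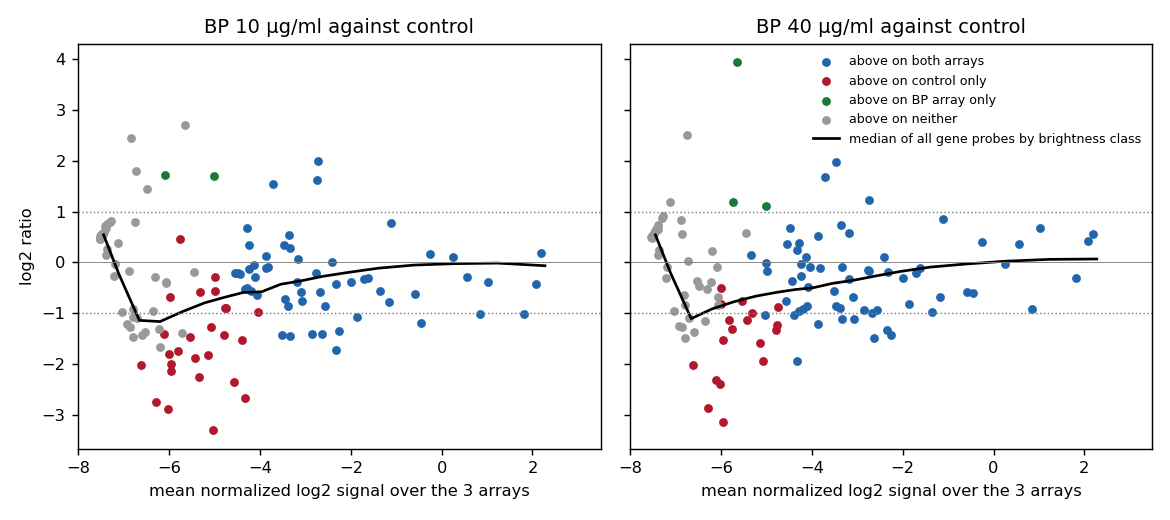
Log2 ratio of each member probe against control, plotted over its mean normalized level on the 3 arrays. Colours give the arrays on which the probe was well above background, the line is the median of all gene probes in each brightness class (the brightest 2 classes, which hold no member, lie off the axis), and dotted lines mark 2-fold; the line dips below −1 among dim probes and rises to 0.54 in the dimmest class. Medians of members lay near it in some classes (0.55 in the dimmest on BP10) and away from it in others (−1.55 beside −0.79 in the 6th of 20 on BP10).

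Detection on the arrays compared split the calls. Of 55 members well above background on both the BP10 and control arrays, 3 were called higher and 10 lower (5.45% and 18.2%, beside 3.13% and 10.2% of all gene probes so detected), with a median ratio of −0.38 beside −0.15. Of 26 that were above on control and not on BP10, 18 were called lower (69.2%, beside 68.9% of all gene probes so detected), with a median of −1.63 beside −1.39. For these the BP10 value is read only as an upper limit. The limit was the higher of the BP10 value and that array's lowest level above background. By it 7 of the 26 were at least 2-fold lower, beside 1590 of 8214 gene probes so detected. That lowest level is the minimum over flagged probes, and unflagged probes can lie above it (a Defa3 probe at −4.67 on BP10). Each "at least" below therefore holds for this limit only. The 44 members above on neither array had a median of 0.32 (all gene probes 0.17). Without being called, 4 of them passed 2-fold upward and 10 downward (9.09% and 22.7%, beside 6.24% and 17.1% of all gene probes so detected). For BP40 against control, 65 were above on both arrays (median −0.26, beside −0.07 over all gene probes so detected), of which 4 were higher and 10 lower (6.15% and 15.4%, beside 2.76% and 9.03%). Another 18 were above on control and not on BP40 (median −1.32, beside −1.30), of which 13 were called lower (72.2%, beside 63.8%). By the limit 3 of the 18 were lower, beside 1342 of 7688 gene probes so detected. Against BP10, BP40 had 56 above on both (median 0.09 beside 0.07), with 2 higher and 2 lower (3.57% each, beside 1.72% and 1.76%). Another 10 were above on BP40 and not on BP10 (median 1.06 beside 0.94), of which 5 were called higher (50%, beside 46.8%). By the limit 1 of the 10 was higher, beside 370 of 2340 gene probes so detected.

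Signals of the arrays differed in ways that touched these probes before any comparison. The lowest level well above background was −5.68 on the control array against −5.07 and −5.05 on the BP arrays. The negative control spots, outlier spots included, had SDs of 33.1, 122 and 37.9 background-subtracted units, and the brightest on BP10 read 1628 processed units. With outlier spots left out, the 99th percentiles of their processed signal were 7.54, 11.6 and 9.61 units. The software multiplied member spots by a spatial detrending factor of 0.906 to 1.24 on BP10 and 0.923 to 1.23 on BP40, and by 1 on control. The control array was scanned in another session than both BP arrays, so its scan and the absence of BP cannot be told apart. Undoing the detrending left 32, 30 and 11 members called in the 3 comparisons, beside 33, 30 and 10.

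Scanner error, the software's own estimate for a spot, had a median over the members of 0.19 on control, 0.36 on BP10 and 0.29 on BP40 on the log2 scale. For members not well above background it was 0.96, 1.45 and 1.45, and for those above it 0.16, 0.17 and 0.18. Calls larger than 2 combined scanner errors numbered 27 of 33, 24 of 30 and 7 of 10. The 42 members above background on no array passed 2-fold 3 times upward and 9 downward on BP10, 2 upward and 6 downward on BP40, and 0 of them by more than 2 scanner errors on either. This error leaves out the culture, the labelling and the array.

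At both doses, 21 members were called the same way against control, 3 higher (all gene probes 1.02%) and 18 lower (10.3%), and 0 in opposite ways (0.283%). The comparisons share the control array, so the values at the doses are given side by side and are no independent support for each other.

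Of the calls higher, Krtap31-2 and Krtap5-4 were above background on each array. Krtap5-4, an ultra-high-sulfur member, read 124 units on control, 398 on BP10 and 204 on BP40, log2 ratios of 1.99 and 1.24 with a scanner error of 0.23 each. Krtap31-2 read 63.1, 148 and 141, with ratios of 1.55 and 1.68. The third call at both doses, the dimmer of the Defb42 probes, read 28.1, 73.4 and 42.1, and with control not above background it was at least 2.69-fold higher on BP10 and at least 1.78-fold higher on BP40. Its other probe read 58.6, 38.4 and 40.2 and was called in neither comparison.

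Some calls higher were at 1 dose. Krtap8-1, of the glycine-tyrosine type, read 187, 462 and 115 units: log2 ratios of 1.62 for BP10 and −0.18 for BP40. Krtap1-5, a high-sulfur member, read 92.5, 94.0 and 252, with 0.34 and 1.97. In these members the array that stood apart was a BP array, and the control lay beside the other BP array. Krtap13-1 had the highest ratio of any member, 3.93 for BP40 against control, from 7.54 units (a surrogate), 39.4 (not above background) and 80.3: at least 3.39-fold higher on BP40. Defb38 was called higher on BP10 from 17.7, 46.5 and 11.5 units, above background on BP10 alone and at least 1.7-fold higher there than on control. At both of these dim probes the size of the ratio came from values below the detection limit, and Krtap3-2, at 7.54, 33.1 and 7.76 units with a log2 ratio of 2.45 for BP10, was left uncalled because no array was above background.

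Of the calls lower against control, 18 of 28 on BP10 and 13 of 23 on BP40 were of probes above background on control and not on the BP array compared, and 5 of the 18 were above on BP40. Defb15, a beta-defensin of the male reproductive tract, read 145 units on control, 11.8 on BP10 and 49.5 on BP40, a log2 ratio of −3.30 with scanner error 1.40 for BP10, the lowest of all members, and at least 2.79-fold lower by the limit. Its partner Defb34, whose probe differs at 6 bases, read 163, 121 and 48.7, ratios of −0.11 and −1.22. The pair thus differed on the BP10 array and lay close on BP40, where Defb15 was at −1.03.

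Defb9 read 253, 32.0 and 46.0 units and had the strongest limit, at least 4.85-fold lower on BP10. Above background on the control and BP40 arrays, it had a log2 ratio of −1.93 at 40 µg/ml. Defb29 read 150, 23.7 and 62.2 (at least 2.88-fold lower on BP10, log2 ratio −0.75 on BP40). The dimmest of the 3 Defb30 probes read 69.7, 11.8 and 53.9, at least 1.34-fold lower on BP10. Like Defb15, these were above background on control and BP40 but not on BP10. Of the 7 calls higher on BP40 against BP10, 5 were of probes above background on BP40 alone of that pair, Defb15, Defb29 and Defb30 among them.

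Krtap28-13 read 81.2 units on control and surrogates of 9.76 and 7.79 on the BP arrays; its log2 ratios of −2.74 and −2.86 came down to at least 1.56-fold and 1.55-fold lower. Defb2 read 89.8, 9.85 and 11.97, at least 1.72-fold and 1.71-fold lower. The dim Krtap5-2 probe read 94.8, 17.5 and 7.54, with ratios of −2.13 and −3.13 and limits of 1.82-fold and 1.81-fold. Defb18 read 44.8, 8.88 and 7.77 and was called lower at both doses, at −2.02 and −2.01, but 44.8 units on control lay under the lowest level above background of both BP arrays after scaling, so no fold is given. Of the 20 calls for BP10 against control with 1 array above background, 12 had a limit under 2-fold and 2 of these no limit above 1-fold. For BP40 against control the same held for 11 and 2 of 16.

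A smaller set was lower with all arrays above background. Krtap6-1, a glycine-tyrosine member, read 700, 170 and 194 units on its brighter probe, log2 ratios of −1.72 and −1.33 with a scanner error of 0.22. Its partner Krtap16-8, 3 bases away, read 970, 529 and 344, at −0.56 and −0.97 and uncalled. Krtap26-1 read 691, 219 and 179 (−1.34 and −1.42), and Krtap19-7 read 547, 165 and 135 (−1.41 and −1.49). The brighter Defb36 probe read 310, 91.3 and 100, with −1.45 and −1.11. Krtap6-1, Krtap26-1, Krtap19-7 and Defb36 gave the 4 probes above background on each array that were called lower at both doses, which fixes that both BP arrays lay below control. Another 6 were called lower on BP10 alone and 3 on BP40 alone. Krtap9-5 read 242, 72.2 and 114, with −1.43 on BP10 and −0.56 on BP40, and Krtap10-10 had −1.004 and −0.31. Defb34, described above, was lower on BP40 alone. Calls with both arrays above background numbered 13 of 33 for BP10 against control, 14 of 30 for BP40 against control and 4 of 10 for BP40 against BP10.

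Probes of 1 gene name often differed. Of 18 genes with more than 1 probe, 17 had more than 1 value on BP10 against control, and in 8 of these a call was not shared by the other probes. Of the 8, Defb36, had ratios of −1.45 and −1.39 and differed by the filter on detection alone. On BP40 against control 9 of 18 had a call that was not shared. The median SD of the log2 ratio between probes of a gene was 0.61 and 0.66. Krtap4-16 had −1.59 and 1.73 for BP40 against control, from probes at 109 and 25.1, and 168 and 389 units. Defb36 had −1.11 and 1.20 in that comparison, the second from 34.4 (not above background), 10.5 (a surrogate) and 55.0 units. Krtap6-1 had −1.72 and 0.52 for BP10 against control, where the second probe was at a surrogate on each array. The Krtap5-1 probes printed above read 1914, 675 and 884, and 605, 389 and 363, with ratios of −1.19 and −0.32 for BP10, while that of Krtap5-3 read 1277, 1155 and 1174. The overlapping Krtap20-2 probes read 1085, 508 and 473, and 2032, 1770 and 1391, with ratios of −0.78 and 0.12 for BP10. The Defb28 probe printed above read 62.4, 18.2 and 25.8, called lower at 10 µg/ml alone.

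**Figure D4:**
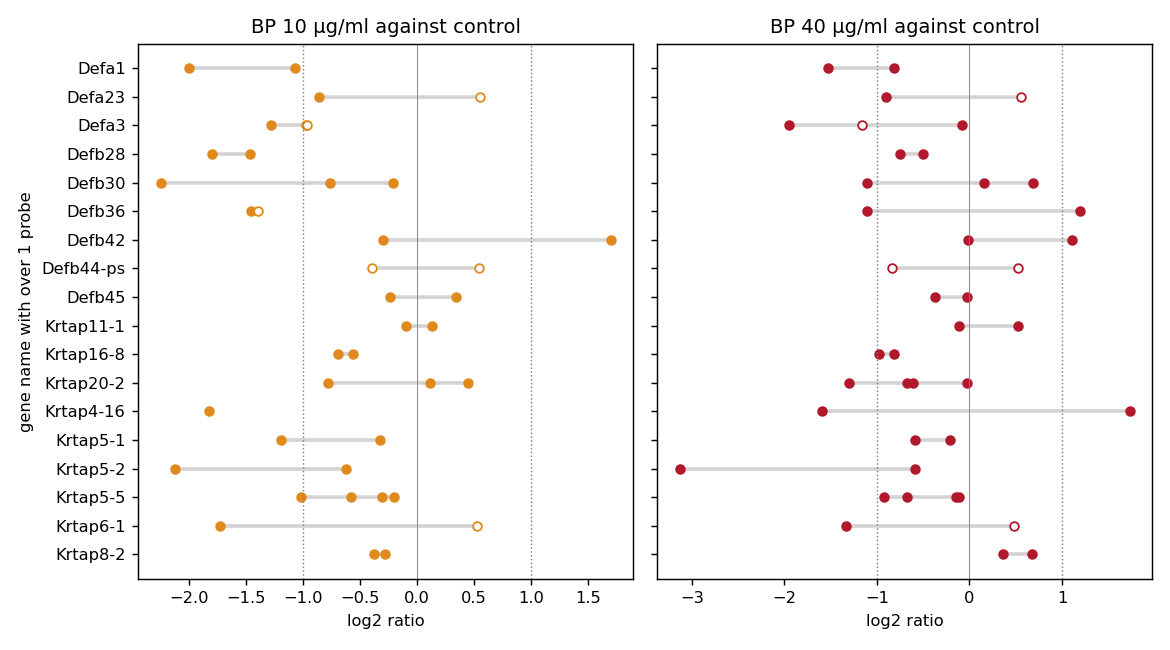
Log2 ratio against control for each probe of the 18 genes with more than 1 probe, joined by gene. Filled points were well above background on 1 or both arrays, open points on neither, and dotted lines mark 2-fold; Krtap4-16 and Defb36 have probes called in opposite directions at 40 µg/ml (−1.59 and 1.73, −1.11 and 1.20).

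Krtap16-8 also had a probe printed in 10 spots, which shows the spread of a dim probe within an array. Its spots ranged from 8.07 to 125 units on control, 10.8 to 30.7 on BP10 and 7.86 to 29.8 on BP40, with 6, 0 and 0 of 10 well above background. The SD between its spots was 1.54, 0.56 and 0.75 on the log2 scale, beside a median of 0.17, 0.08 and 0.09 over all probes with 10 spots. Most other members had 1 spot, for which no such spread can be seen.

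Listed genes of the same biology were read beside the members, with the probe of each gene chosen as for the markers. Of 25 listed genes of the hair shaft and other parts of the follicle, 22, 14 and 17 were well above background on the control, BP10 and BP40 arrays. On BP10 against control 2 were called higher and 9 lower, and on BP40 against control 0 higher and 7 lower. Of all gene probes, which were not so chosen, 2.99% were higher and 17% lower on BP10, and 2.73% and 14.9% on BP40. Hoxc13, a transcription factor of the hair shaft, read 517, 463 and 540 units and was not called, and the hair keratin Krt86 read 1522, 441 and 495 and was called lower at both doses. Krt35, another, read 131, 32.2 and 11.96, above background on control alone. The 2 called higher on BP10 were Lef1 (473, 1044 and 446 units) and Padi3 (75.2, 206 and 48.0), both above background on each array. Keratin genes of any type (Krt and a number) were above background in 85.1%, 53.7% and 61.2% of 67 probes, with 0 called higher and 29 lower (all gene probes 17%) on BP10 and 0 and 21 (14.9%) on BP40.

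Of 20 genes of defensin processing, sensing and company, 13, 11 and 11 were well above background, with 2 higher (all gene probes 2.99%) and 5 lower (17%) on BP10, and 3 higher (2.73%) and 3 lower (14.9%) on BP40 against control. Mmp7, the protease that activates alpha-defensins, read 418, 97.4 and 131 units and was called lower at both doses. Lyz2 read 1166, 2010 and 1939 units and was called higher at both doses. Ccr6, a receptor that beta-defensins bind, read 149, 43.5 and 25.2, above background on control alone. Camp, the precursor of the cathelicidin peptide, read 214, 265 and 334 and was called higher on BP40, and the bacterial sensors Tlr2 (672, 438 and 477) and Tlr4 (544, 475 and 426) were not called.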

How the data were processed

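Gene expression of MEF was measured on 3 one-colour arrays, 1 per condition. The authors deposited each array's scanner output, made with Feature Extraction 10.5.1.1, and a series table whose intensity values equalled the scanner's processed signal for 62976 of 62976 rows per array (relative tolerance 0.0001, 0 columns unmapped, column medians 199, 125 and 107, linear and not scaled between arrays). The intensity was background-subtracted and, on the BP arrays, detrended by that software. Here log2 of the processed signal was taken and each array's 75th percentile over gene spots without outlier flags was subtracted. Spots of a probe were averaged, leaving out outlier spots, and 2 members therefore had no value on BP10. A probe not above background gave a limit. It was the higher of its own level and the lowest level well above background of that array. That lowest level is the minimum over flagged probes and no detection threshold for every probe. With 1 array per condition no test was run, and precision is limited by the number of arrays.

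Members and gene lists were chosen with earlier results of these data known. Named were the 6 highest and 6 lowest calls per comparison, calls shared by both doses, the 10 brightest on control, the brightest of each family, members with more than 1 probe and members at background; the sequence pairs, the printed probes, Defb1, Defb4, Defb14, Krtap3-2, Krtap9-5 and the examples at surrogate values were chosen after their values were seen. The files' gene names can be old: the accession of 119 member probes was found in RefSeq (GRCm38.p6, names only), where 11 had another symbol (Krtap16-8 is Krtap6-5, Krtap16-4 is Krtap19-4 and Krtap8-2 is Krtap19-5). By name the control file held 128 of the 129 probes. Python 3.11.15, numpy 2.4.6, pandas 2.3.3, scipy 1.17.1, matplotlib 3.10.9, R 4.3.3 and limma 3.58.1 (normexp with offset 50, quantile) were used, and calling was tested on simulated data.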

Additional observations from a re-analysis of the deposited data

Results flagged for a closer look

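On the BP10 array 2 member spots carried the software's flag for a non-uniform spot and were left out of the comparisons, and their signals lay far above the same probes on the other arrays. The Krtap4-16 spot read 6890 units, beside 168 on control and 389 on BP40, which would be a log2 ratio of 5.67 against control. The Krtap20-2 spot read 1357 units, beside 119 and 54.2, which would be 3.82. Pixel SDs within these spots were 5384 and 1616 units, against 49.0 and 54.6 for the same probes on control. With outlier spots kept, both would have been called higher on BP10.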

How the results depend on the processing

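No paired analysis was possible because no condition has a replicate array. Detrending and outlier spots were added as alternatives after seeing the data. Calls numbered 33 and 30 against control (BP10, then BP40) and 10 between the BP arrays. Requiring both arrays above background gave 13, 14 and 4, a floor at the lowest level above background 21, 19 and 5, and normexp 6, 5 and 1. A 3-fold threshold gave 18 and 12 against control, and a 1.5-fold threshold 53 for BP40 against control and 21 between the BP arrays. Subtracting the brightness class median gave 18 and spike-in scaling 54 for BP40 against control. Between the BP arrays spike-in scaling gave 17, and no filter, or the 99th percentile of negative controls as the filter, 18. Members above background on BP10 were 88 by that percentile and 91 by the software's looser flag. The median ratio for BP10 against control (−0.39) was −0.0205 with the class median subtracted, −0.0058 with normexp, −0.0537 with quantile normalization and 0.0666 with the floor. For BP40 against control (−0.31) it was 0.011, 0.20, 0.0059 and 0.24, and −1.09 with spike-in scaling, which moved the median of all gene probes by −0.79. Between the BP arrays (0.06) it was 0.16 with normexp, −0.0298 with the percentile over probes above background on all arrays and −0.80 with spike-in scaling. Defb18 turned to 0.22 on BP10 and 0.23 on BP40 with the floor and 0.10 on BP40 with normexp, and Krtap6-2 to 0.10 on BP40 with normexp. The floor and normexp compress dim values by construction; other causes were not tested. Of 90 such alternatives, 58 left the result within its tolerance. The count includes the series table, whose values equalled the processed signal, so its results could not differ. It also includes the 99th percentile of negative controls as the filter for calls, which on control lay at the surrogate (7.54 units). That filter gave the same number of calls as no filter in each comparison. Below the lowest level well above background, a signal gives no size of change.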
